A study of Homo sapiens with 15 samples.

Results

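The RNA of the HEK293T clone MAGI2-CKO was compared with that of the clone C9orf89-CKO, over 3 culture wells of each, which were 6 of the 15 libraries measured. HEK293T cells derive from human embryonic kidney, and the CKO clones were grown out by limiting dilution after Cas9 and a guide RNA from the vector lentiCRISPRv2 had cut 1 gene. The study used such clones as supporting cells for tumor cells that were exposed to a drug, and asked which disrupted genes changed that support. The remaining libraries came from MLPH-CKO, RHBDD2-CKO and Non-target, a clone that carries the same vector with a guide that has no target, and they were used for the spread between wells and as reference levels. The MAGI2-CKO cells are labelled as a MAGI2 knockout and the C9orf89-CKO cells as a C9orf89 knockout, and no drug or tumor cell was part of these RNA samples. Each group was 1 clone, so the p-values below measure the spread between wells and cannot tell the effect of a guide from a difference between clones.

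The 2 disrupted genes have unlike roles. MAGI2 is a scaffold protein of cell membranes and junctions, which holds receptors and adhesion molecules together through its PDZ and WW domains. C9orf89, whose current symbol is CARD19, is a small protein with a caspase recruitment domain, and that domain family passes signals in cell death and inflammation through proteins such as BCL10.

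The sites that the guides match are shown because they fix which part of each gene was cut in each clone. They are written 5′ to 3′ along the strand that the guide matches, with the PAM, the short motif that Cas9 needs beside its target, in capitals.
MAGI2 guide site: tgacaacctctacctccgcaCGG
C9orf89 guide site: tcagacctattgtgaccgccTGG
The MAGI2 site lies at chr7:79007096-79007118 (GRCh38, GENCODE v29, minus strand), in exon 2 of the 22 exons of transcript MAGI2-201, and is present in 6 of the 42 transcripts annotated for the gene. The cut falls at codon 136 of 1454, after 9.30% of the protein. The C9orf89 site lies at chr9:93107675-93107697 (plus strand), in exon 2 of the 6 exons of CARD19-201, and in 7 of the 9 transcripts. Its cut falls at codon 9 of 182, after 4.55% of the protein.

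The libraries held 19489918, 18973593 and 19423812 fragments on genes in MAGI2-CKO and 16330131, 17808514 and 16429553 in C9orf89-CKO. Expression was given as FPKM, a fragment count scaled by exon length and library size, so that levels of different genes are compared per length. The test covered 16175 of the 58735 genes listed, those that reached 0.5 FPKM in 3 or more of all 15 libraries. Differences are MAGI2-CKO minus C9orf89-CKO on the log2(FPKM + 0.1) scale, with the standard error (SE), and adjusted p-values come from limma with Benjamini-Hochberg adjustment over all genes tested at a threshold of 0.05.

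In all 5 groups replicate 1 stood apart from replicates 2 and 3. The chi-square per gene of the fragment counts was 15.6 and 18.02 for the pairs with replicate 1 in MAGI2-CKO against 3.18 for replicates 2 and 3, and 18.3 and 17.4 against 3.00 in C9orf89-CKO. In the 3 other groups it was 14.6 to 24.8 with replicate 1 and 2.40 to 6.54 without. Mitochondrial genes took 3.28%, 2.44% and 2.64% of the fragments in the MAGI2-CKO libraries and 3.10%, 1.88% and 1.87% in the C9orf89-CKO libraries. None of the 13 mitochondrially encoded genes passed the test, with a median difference of 0.39, but 8 were higher without replicate 1 of every group, 3 in the fit blocked on replicate number and 1 without C9orf89-CKO replicate 1.

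Between the clones 3641 genes passed the threshold, or 22.5% of those tested, of which 1579 were higher in MAGI2-CKO (9.76%) and 2062 were lower (12.7%). The difference reached 2-fold for 678 of them (4.19%), 340 higher and 338 lower, and 8-fold for 22 higher and 21 lower genes. The libraries of the clones did not overlap for 6141 genes (38.0%), of which 2847 were higher (17.6%) and 3294 lower (20.4%), and the median difference over all genes tested was 0.00. Without replicate 1 of every group, 5053 genes passed, 2356 higher and 2697 lower. Rescaling each library to the same FPKM sum (TPM) turned the balance further to the lower side, with 1063 higher and 2622 lower genes and a median shift of -0.07. Protein-coding genes made up 3181 of the genes past the threshold, of 12375 tested, and other gene types 460 of 3800.

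**Figure D1:**
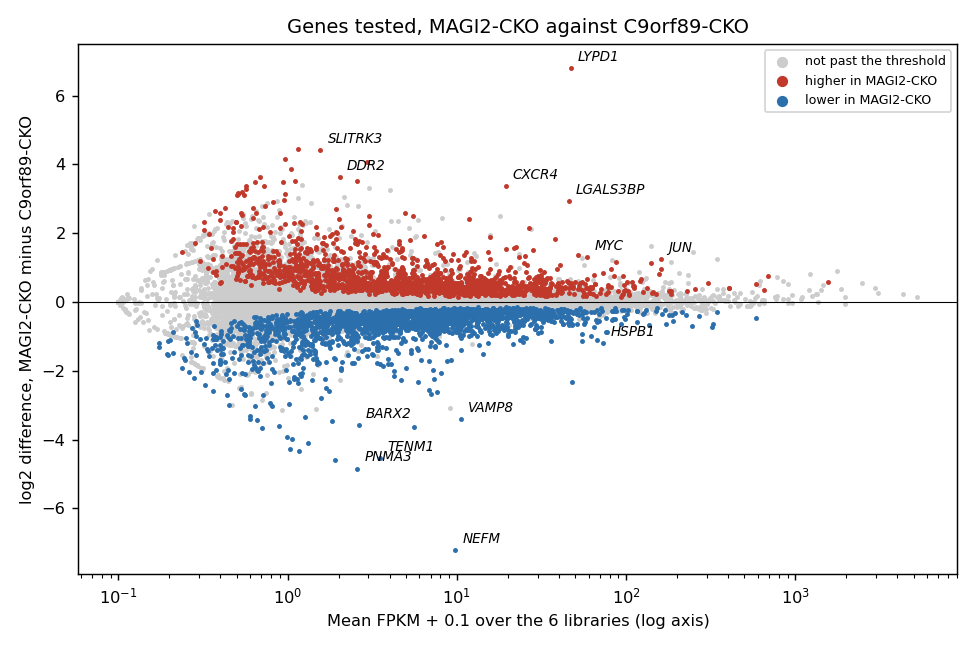
Log2 difference between MAGI2-CKO and C9orf89-CKO (y axis) against mean FPKM + 0.1 over the 6 libraries (x axis, log scale), 1 point per gene tested, red for the 1579 higher and blue for the 2062 lower genes past the threshold and grey for the rest. LYPD1 at 6.80 and NEFM at -7.21 lie farthest from 0.

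The guide targets themselves gave an uneven check of the labels. CARD19 stood at 5.38, 5.86 and 6.22 FPKM in MAGI2-CKO and at 4.34, 4.27 and 4.34 FPKM in C9orf89-CKO. All MAGI2-CKO libraries were above all C9orf89-CKO libraries, with a difference of 0.42 ± 0.10 (SE; limma adjusted p = 0.00913; exact two-sided permutation test over the wells, p = 0.1, the smallest that 3 against 3 allow), and the adjusted p was 0.0562 after rescaling to TPM. The means were 6.56 FPKM in Non-target, 6.68 FPKM in MLPH-CKO and 4.79 FPKM in RHBDD2-CKO, so that C9orf89-CKO had the lowest level, with RHBDD2-CKO next to it. MAGI2 was below the filter on low values, with 0.0899, 0.0523 and 0.0618 FPKM in MAGI2-CKO and 0.0749, 0.0740 and 0.0666 FPKM in C9orf89-CKO. These were 32 to 55 fragments per library in MAGI2-CKO and 35 to 42 in C9orf89-CKO, and the groups overlapped (exact permutation test, two-sided, p = 0.7), so the RNA gives no check of the MAGI2 label. A frameshift need not lower the RNA of a gene, and the files hold no reads in which the cut could be seen.

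The largest rise was that of LYPD1, a GPI-anchored protein of the Ly6 family (chr2:132644853-132671579, minus strand). It was measured at 86.3, 94.7 and 98.1 FPKM in MAGI2-CKO and at 0.578, 0.944 and 0.721 FPKM in C9orf89-CKO. The groups lay far apart, with a 124-fold ratio of the means and a difference of 6.80 ± 0.21 (limma adjusted p = 1.4e-09). The means were 3.25, 1.02 and 0.224 FPKM in Non-target, MLPH-CKO and RHBDD2-CKO, so MAGI2-CKO was the group that stood apart. Within the gene on the other strand lies AC010974.1 (chr2:132660526-132666990), a transcript of 2.48, 2.07 and 1.78 FPKM in MAGI2-CKO that was listed at 0 in every C9orf89-CKO library. The strand of the libraries is not given in the sources used here, so reads of the gene and of its antisense partner cannot be told apart.

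CXCR4, the receptor of the chemokine CXCL12, lies on the same chromosome arm at chr2:136114349-136118165. Its level was 34.9, 34.6 and 36.4 FPKM in MAGI2-CKO and 3.21, 3.47 and 3.24 FPKM in C9orf89-CKO. The 6 wells fell into separate and narrow groups, 10.7-fold apart (3.38 ± 0.14; limma adjusted p = 1.6e-08). Non-target, MLPH-CKO and RHBDD2-CKO stood at means of 3.01, 3.78 and 4.26 FPKM, near C9orf89-CKO. Of the 10 genes tested in the 3.44 Mb between LYPD1 and CXCR4, 1 was higher and 2 were lower, with a median difference of -0.11. CXCL12 itself, named here after its values were seen, was at 0.907, 1.20 and 0.868 FPKM against 0.618, 0.758 and 0.681 FPKM, and the difference of 0.47 did not pass the test (limma adjusted p = 0.0561).

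CXCR4 is also a receptor of blood cells, so leukocyte markers were read beside it. Only 3 of 21 markers reached the filter and none of them passed the test. ITGB2, the beta subunit of leukocyte integrins, came nearest, at 0.553, 0.698 and 0.791 FPKM against 0.454, 0.237 and 0.397 FPKM (0.77; limma adjusted p = 0.056), without overlap, and 1 marker of the list passed as higher in 7 alternatives, such as without C9orf89-CKO replicate 1. Below the filter SPI1, CD4 and LAPTM5 were higher in every MAGI2-CKO library than in any C9orf89-CKO library and CD14 was lower, all at under 0.5 FPKM. Their summed level was 3.88, 3.77 and 3.92 FPKM in MAGI2-CKO and 3.43, 2.77 and 3.26 FPKM in C9orf89-CKO, with CORO1A, a protein of the actin cortex, as the most abundant gene at about the same level in both (limma adjusted p = 0.67). PTPRC, MPO, TYROBP, CSF3R and FCGR1A were listed at 0 in all 6 libraries. The part of other cells in these values was not tested.

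**Figure D2:**
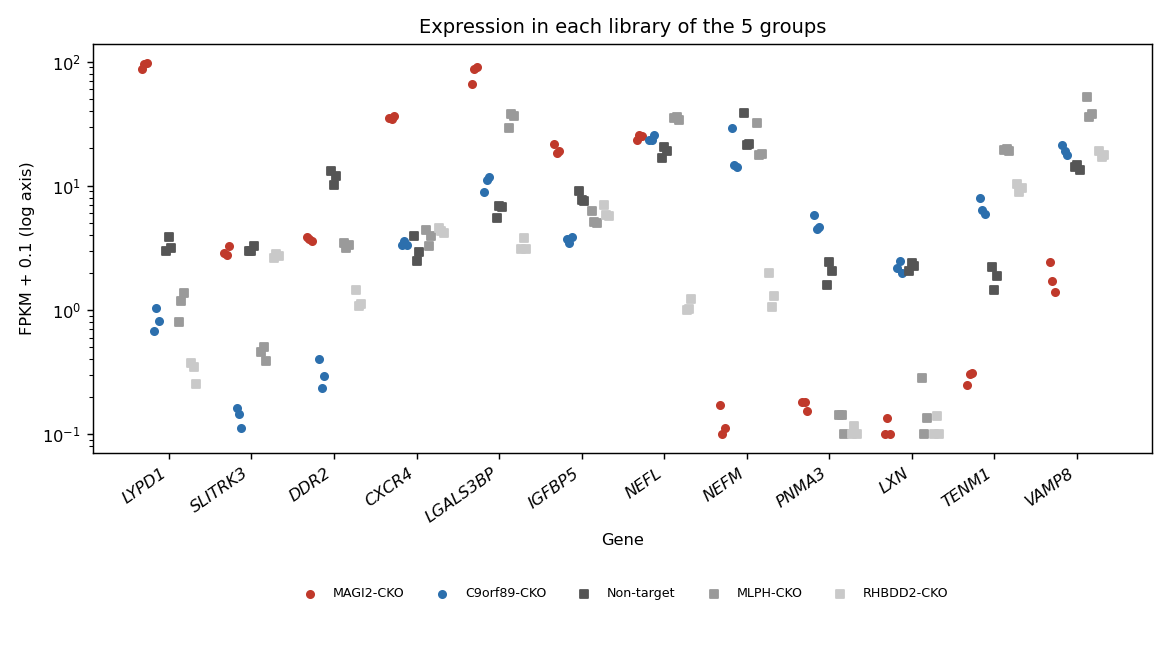
FPKM + 0.1 (y axis, log scale) of 12 genes in each of the 15 libraries, with 1 point per library, red for MAGI2-CKO, blue for C9orf89-CKO and grey squares for the other groups. LYPD1 and CXCR4 are high in the MAGI2-CKO libraries alone, whereas SLITRK3 and DDR2 are low in the C9orf89-CKO libraries, and NEFM, PNMA3 and LXN are near 0 in MAGI2-CKO.

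For other rises the reference groups stood elsewhere. SLITRK3, a synaptic adhesion protein, was at 2.79, 2.67 and 3.18 FPKM in MAGI2-CKO against 0.0619, 0.0454 and 0.0123 FPKM in C9orf89-CKO (4.43 ± 0.15; limma adjusted p = 1.9e-09). The Non-target mean of 2.99 FPKM and the RHBDD2-CKO mean of 2.63 FPKM were like MAGI2-CKO, and C9orf89-CKO was low beside these groups. For DDR2, a collagen receptor tyrosine kinase, C9orf89-CKO was the lowest group. It gave 3.80, 3.62 and 3.53 FPKM against 0.305, 0.135 and 0.196 FPKM (3.62 ± 0.17; limma adjusted p = 3.5e-08), below the 11.7 FPKM of Non-target in both clones. LGALS3BP, a secreted glycoprotein that binds galectins, was measured at 66.1, 87.0 and 89.9 FPKM in MAGI2-CKO and at 8.74, 11.1 and 11.6 FPKM in C9orf89-CKO. Its libraries did not overlap (2.94 ± 0.15; limma adjusted p = 5.8e-08), and MLPH-CKO lay between them with a mean of 34.4 FPKM. IGFBP5, a binding protein of insulin-like growth factors, stood at 21.6, 18.3 and 19.1 FPKM against 3.66, 3.40 and 3.75 FPKM (2.41 ± 0.11). The phenol sulfotransferase SULT1A1 rose by 2.72. Higher levels of multigene families were read with care, because reads can be split between near-identical copies. That holds for MAGEB2 (4.08; 5.66, 5.70 and 5.09 FPKM against 0.263, 0.172 and 0.261 FPKM), for CSAG3 (2.60) and for the transcribed pseudogene TSSC2 (3.53).

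The sequence before LYPD1 is shown because this gene had the largest rise. The motif TGACTCA, which is known to be bound by the AP-1 factor, was chosen after the values were seen. JUN and FOS, members of AP-1, were among the genes that rose. The window is the 250 bases before the RefSeq start site, chr2:132671527-132671776 (GRCh38.p14, minus strand), 5′ to 3′ along the gene, with the motif in capitals.
LYPD1 upstream window: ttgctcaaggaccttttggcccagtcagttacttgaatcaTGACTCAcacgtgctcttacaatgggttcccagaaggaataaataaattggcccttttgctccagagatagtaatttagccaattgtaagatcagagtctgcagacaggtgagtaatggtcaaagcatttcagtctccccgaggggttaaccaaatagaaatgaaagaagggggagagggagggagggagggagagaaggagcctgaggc
The motif begins 210 bases before the start. In RefSeq windows from 250 bases before to 50 after the start, TGACTCA on either strand was found in 1738 of 35116 windows (4.95%) and in 448 of the 10260 genes tested that have one (4.37%). It was in 10 of 154 genes at least 2-fold higher (6.49%) and in 13 of 205 at least 2-fold lower (6.34%). Among the 12 protein-coding genes with the largest rise, 10 had a window and 3 held the motif (LYPD1, DDR2 and MAGEB2), and of the 12 with the largest fall it was in 0 of 8. The last 2 sets are small, and DDR2 was below Non-target in both clones. A match is a description of these letters and not a bound site, and the part of AP-1 in these values was not tested.

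The largest fall was that of NEFM, the medium chain of the neurofilaments that fill axons. It was at 0.0705, 0 and 0.0117 FPKM in MAGI2-CKO, which were 6, 0 and 1 fragments, and at 28.99, 14.7 and 14.2 FPKM in C9orf89-CKO. All C9orf89-CKO libraries were far above all MAGI2-CKO libraries (-7.21 ± 0.36; limma adjusted p = 3.9e-08), and with so few fragments the fitted difference ranged from -9.83 to -4.23 over the alternatives tried. Non-target and MLPH-CKO had means of 27.2 and 22.4 FPKM and RHBDD2-CKO 1.34 FPKM. NEFL, the light chain, whose gene is next to NEFM on the chromosome, was at 23.5, 25.4 and 25.3 FPKM in MAGI2-CKO and at 23.2, 23.4 and 25.5 FPKM in C9orf89-CKO. These ranges overlapped and the difference was 0.04 ± 0.09 (limma adjusted p = 0.79), which sets the near absence of NEFM beside an even level of its neighbour.

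Other genes with large falls were of varied roles. TENM1, a teneurin adhesion protein of neurons, stood at 0.148, 0.208 and 0.211 FPKM against 7.92, 6.26 and 5.81 FPKM (-4.54 ± 0.15; limma adjusted p = 1.9e-09). PNMA3, a paraneoplastic antigen, gave 0.0825, 0.0825 and 0.0547 FPKM against 5.69, 4.40 and 4.59 FPKM (-4.84 ± 0.23). For PNMA3 the Non-target mean was 1.93 FPKM, and MLPH-CKO and RHBDD2-CKO were near 0 with 0.0288 and 0.00525 FPKM. LXN, a carboxypeptidase inhibitor, was counted by 0, 1 and 0 fragments in MAGI2-CKO and by 52, 65 and 47 in C9orf89-CKO. VAMP8, a SNARE protein of endosomes and secretory granules, was at 2.34, 1.61 and 1.29 FPKM against 21.05, 18.9 and 17.5 FPKM (-3.41 ± 0.18), without overlap. Among others that fell were RBP7, a retinoid binding protein (-4.58), TRIM58 (-4.09), the transcription factors TCF24 (-3.64) and BARX2 (-3.58), the epithelial splicing factor ESRP2 (-3.35), TMEM132E (-2.78) and the orphan receptor GPR50 (-2.68). Of genes that do not code for proteins, passed without overlap and had a mean of at least 1 FPKM over the 6 libraries, LINC00839 had the largest fall (-3.45).

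Among the abundant genes the changes were smaller. KCTD12, an auxiliary subunit of GABA-B receptors, was at 32.9, 34.8 and 34.1 FPKM in MAGI2-CKO and at 73.9, 74.9 and 76.4 FPKM in C9orf89-CKO (-1.14 ± 0.05; limma adjusted p = 2.9e-08). The small heat shock protein HSPB1 had 41.5, 44.0 and 47.8 FPKM against 92.7, 107 and 107 FPKM (-1.20 ± 0.09), and midkine (MDK), a heparin-binding growth factor, fell by 1.09. No library of one clone reached the range of the other for these genes. On the higher side were the histone gene HIST1H2BK (1.17) and DPM3, a subunit of the dolichol-phosphate mannose synthase (1.36; 92.0, 62.3 and 67.1 FPKM against 44.5, 20.2 and 25.2 FPKM), in which replicate 1 was the highest library of both clones.

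Immediate early genes, which cells switch on within minutes of a stimulus, were gathered into a list after their values were seen, so that their count is a description. Of 18 tested, 11 were higher and 1 was lower, with a median of 0.56. FOS was at 10.2, 12.5 and 14.02 FPKM in MAGI2-CKO and at 3.54, 4.37 and 2.87 FPKM in C9orf89-CKO (1.75 ± 0.21; limma adjusted p = 7.65e-05). JUN, its partner in AP-1, was at 195, 243 and 243 FPKM against 96.8, 95.3 and 92.0 FPKM (1.25 ± 0.14), and MYC, a growth regulator, at 71.6, 87.7 and 90.6 FPKM against 29.2, 35.6 and 36.9 FPKM (1.30 ± 0.13). In all of them the MAGI2-CKO libraries were the high ones, and replicate 1 was the lowest of the 3. FOSB (1.99), NR4A2 (2.06) and EGR1 (1.58) rose as well, whereas FOSL1, another AP-1 member, fell by 1.74 at a low level (0.263 FPKM against 1.10 FPKM). How the wells were handled before lysis is not recorded in the sources used here, and its part in these values was not tested.

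Genes of MHC class II, which present peptides on antigen-presenting cells, were also listed after their values were seen. All 9 that were tested were higher in MAGI2-CKO, with a median of 1.21. A gene can meet the filter of 0.5 FPKM through MAGI2-CKO alone, and HLA-DRA was under 0.5 FPKM in every C9orf89-CKO library. The count is therefore a description. HLA-DRA was at 1.89, 1.93 and 1.96 FPKM against 0.0946, 0.0434 and 0.0938 FPKM (3.53 ± 0.49; limma adjusted p = 0.00023), and HLA-DPA1 at 5.03, 4.83 and 4.83 FPKM against 1.03, 0.976 and 0.887 FPKM (2.23 ± 0.15). The levels were low in both clones, and CIITA, the activator of the class, CD74, HLA-DQA1 and HLA-DOB were under the filter. After rescaling to TPM 7 of the 9 passed. HLA-DMA no longer passed without any 1 of the 6 wells, and HLA-DQB1 without replicate 1 or 3 of either clone, and 6 of the 9 passed without replicate 1 of every group. HLA genes are a family of near-identical copies, which makes the single values uncertain.

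Gene lists of pathways and cell types were counted against the background of 9.76% higher and 12.7% lower genes. Cholesterol synthesis and the targets of SREBP, the factor that drives it, held 0 higher and 16 lower genes of 32 tested, with a median of -0.25, and 2 higher genes in the blocked fit and without replicate 1 of every group. SC5D, sterol C5-desaturase, was at 4.31, 3.96 and 3.73 FPKM in MAGI2-CKO and at 12.7, 13.1 and 14.004 FPKM in C9orf89-CKO (-1.71 ± 0.09; limma adjusted p = 5.7e-08), and its gene lies in a stretch of chromosome 11 described below. HMGCS1, an early enzyme of the pathway, gave 10.6, 8.79 and 8.15 FPKM against 15.5, 14.7 and 14.6 FPKM (-0.71 ± 0.13), and HSD17B7, a late one, fell by 0.71. Lower were also the isomerase IDI1 (-0.58) and the epoxidase SQLE (-0.43), which are named here after their values were seen. The desaturase SCD and the citrate lyase ACLY did not pass. Outside the chromosome stretches the list held 14 lower genes of 30.

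WNT signalling, by which secreted ligands stabilise beta-catenin, held 0 higher and 15 lower genes of 43 tested, with a median of -0.28. ROR2, a receptor of the non-canonical branch, was at 0.257, 0.479 and 0.528 FPKM in MAGI2-CKO and at 2.46, 2.85 and 2.93 FPKM in C9orf89-CKO (-2.49 ± 0.20; limma adjusted p = 2.5e-06). Its gene lies within 10 Mb of CARD19, the guide target of C9orf89-CKO, where the median difference was -0.07. The ligand WNT3A was at 1.37, 1.78 and 1.40 FPKM against 3.43, 4.05 and 4.67 FPKM (-1.36 ± 0.18), and WNT11 fell by 0.85. The wells of the clones did not overlap for ROR2 or WNT3A. The call of WNT11 was lost without MAGI2-CKO replicate 1 (limma adjusted p = 0.078) and without C9orf89-CKO replicate 2 (0.052) or replicate 3 (0.085). NOTUM, an enzyme that inactivates WNT ligands (-1.62), WNT5B (-1.18), the receptors LGR5 and FZD10 (both -0.84) and the nuclear factor LEF1 (-0.31), all named after their values were seen, were lower too. CTNNB1, which encodes beta-catenin, differed by -0.22, and its call was lost when any well other than C9orf89-CKO replicate 1 was left out (limma adjusted p of 0.052 to 0.117). AXIN2, a common readout of the pathway, did not pass (2.26, 2.51 and 2.77 FPKM against 2.82, 2.57 and 2.85 FPKM; limma adjusted p = 0.46).

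Neuronal genes that HEK293T cells express held 3 higher and 14 lower genes of 30, with a median of -0.31. Besides NEFM, the axon guidance ligand SLIT2 was lower at 15.9, 15.96 and 16.7 FPKM against 33.4, 33.4 and 31.7 FPKM (-1.02 ± 0.06; limma adjusted p = 1.75e-07), and GFRA3, a receptor of the GDNF family, fell by 1.98. DPYSL3 (-2.71) and UCHL1 (-0.88), named after their values were seen, were lower as well. In the other direction CRMP1, a relative of DPYSL3 that also acts on growth cones, rose from 5.07, 5.39 and 4.86 FPKM to 12.5, 14.04 and 14.2 FPKM (1.39 ± 0.09). Without MAGI2-CKO replicate 2 the lower genes of this list numbered 9.

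**Figure D3:**
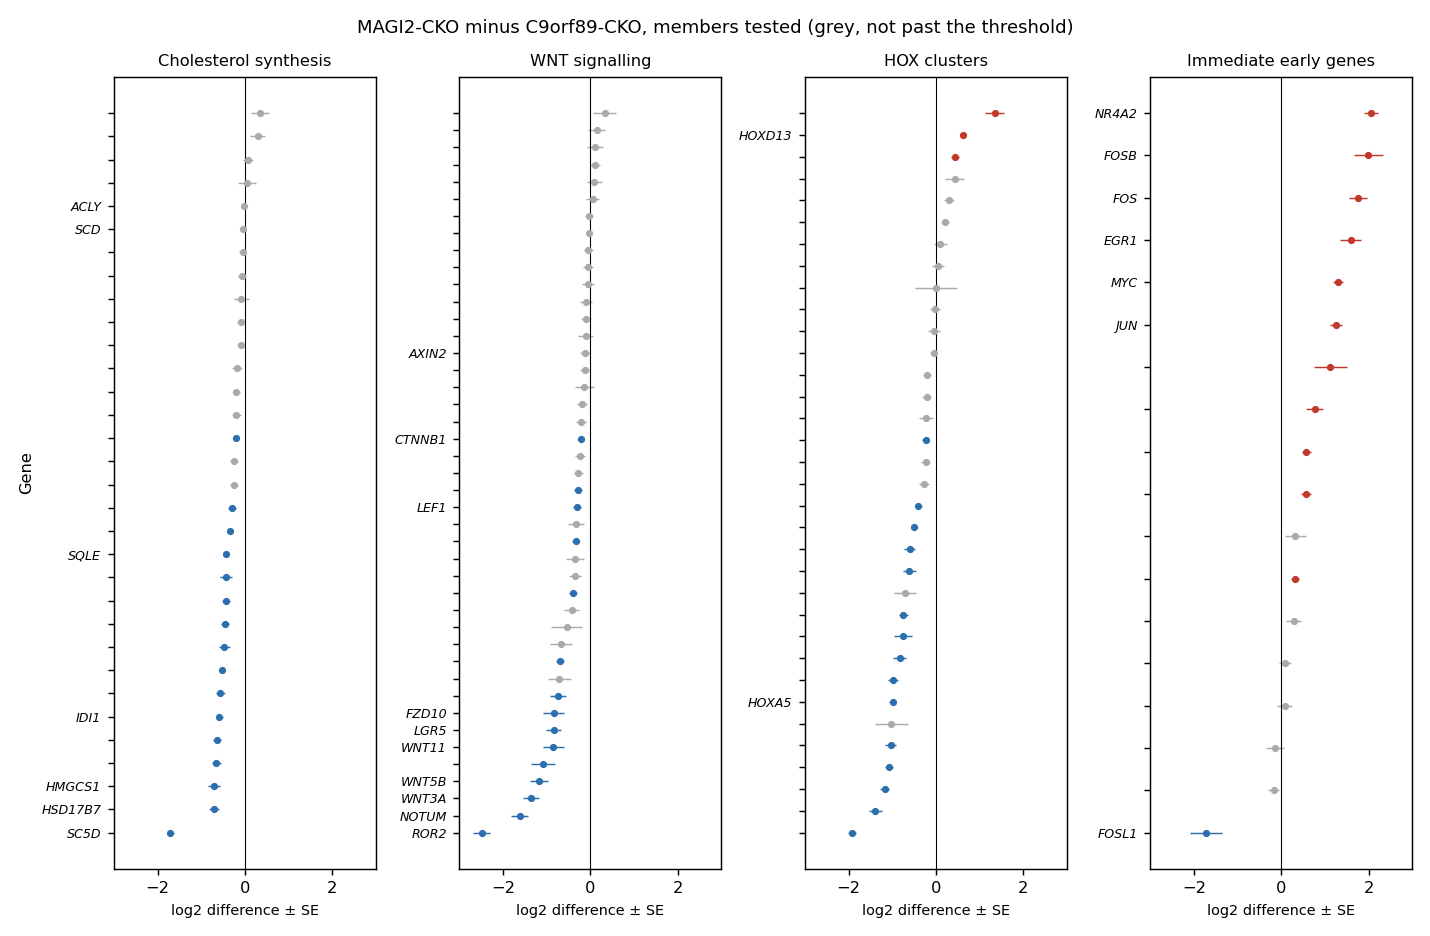
Log2 difference between MAGI2-CKO and C9orf89-CKO ± SE (x axis) of the tested members of 4 lists (y axis, 1 point per gene, with the genes of the text labelled), red for higher, blue for lower and grey for genes that did not pass. The cholesterol and WNT panels hold no higher gene, with SC5D at -1.71 and ROR2 at -2.49 lowest, the HOX panel holds 3 higher genes, and the immediate early list, chosen after its values were seen, holds 11 higher genes.

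HOX genes, which encode position along the body axis, differed between the clones by cluster. The HOXA cluster on chromosome 7 held 8 lower and 0 higher genes of 11, with a median of -1.02. HOXA5 stood at 39.4, 42.9 and 42.7 FPKM in MAGI2-CKO and at 80.5, 84.7 and 83.2 FPKM in C9orf89-CKO, without overlap (-0.99 ± 0.09; limma adjusted p = 5.3e-06). Without C9orf89-CKO replicate 1 the list of all HOX genes had 5 higher genes in place of 3, 1 of them in HOXA, and without MAGI2-CKO replicate 1 HOXB had 1. HOXB had 4 lower genes of 9 and HOXC 2 higher and 3 lower of 8. In HOXD 1 of 6 passed, HOXD13, which rose by 0.61 and was abundant at a mean of 146 FPKM against 95.8 FPKM.

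**Figure D4:**
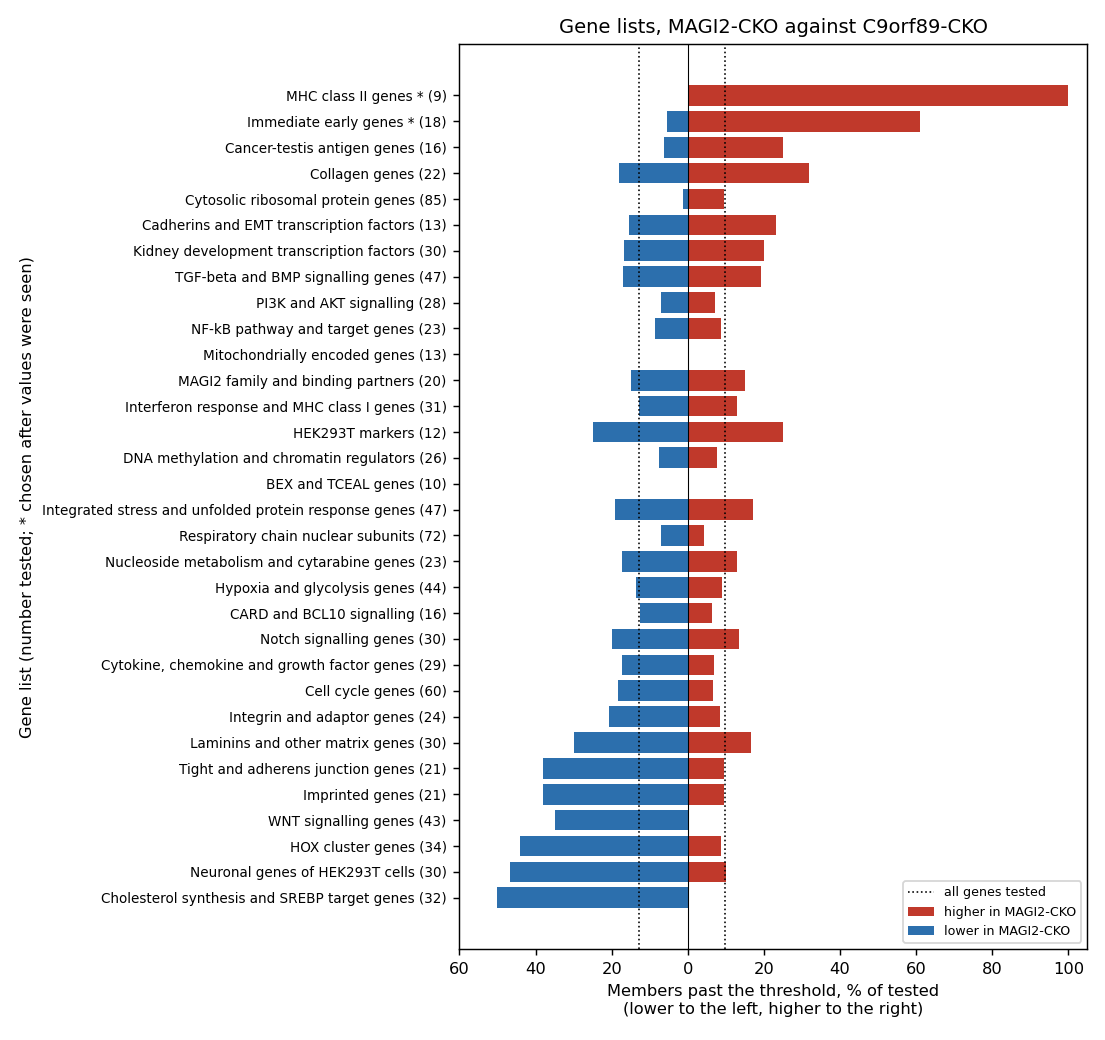
Share of the tested members of gene lists past the threshold (x axis, %, lower to the left and higher to the right), with the number tested in brackets and dotted lines at the shares over all genes, 12.7% lower and 9.76% higher. Lists marked with an asterisk were chosen after their values were seen, and cholesterol synthesis, neuronal genes and HOX clusters reach farthest to the left.

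Cell surface and matrix genes changed in both directions. Of 21 genes of tight and adherens junctions 8 were lower and 2 higher, with CLDN12, JAM3 and MARVELD2 on the lower side and TJP1, a scaffold like MAGI2, on the higher side (0.38). CLDN12 lies in the chromosome 7 stretch, JAM3 in that of chromosome 11 and TJP1 in that of chromosome 15, and outside the stretches 5 of 16 were lower and 1 was higher. The higher count was also 1 under TPM and without MAGI2-CKO replicate 3 or C9orf89-CKO replicate 1 or 3. Of 13 cadherins and factors of epithelial-mesenchymal transition 3 were higher and 2 lower. SNAI2, a repressor of epithelial genes, was at 37.2, 33.4 and 32.5 FPKM in MAGI2-CKO and at 15.8, 15.6 and 15.2 FPKM in C9orf89-CKO (1.14 ± 0.09; limma adjusted p = 2.5e-06). FN1, fibronectin, rose by 0.74 and ZEB2 by 0.62, and CDH1, E-cadherin, was lower at 1.31, 1.39 and 1.19 FPKM against 1.69, 2.26 and 1.68 FPKM (-0.49 ± 0.13). The call of CDH1 was lost without MAGI2-CKO replicate 3 (limma adjusted p = 0.075) or C9orf89-CKO replicate 2 (0.089). Collagens gave 7 higher and 4 lower of 22, and COL2A1, the cartilage collagen, fell by 1.41. The higher collagens numbered 3 under TPM and 3 to 4 without replicate 2 or 3 of either clone. Laminins and other matrix genes gave 5 higher and 9 lower of 30, led by LAMA3 (-1.61), with 2 to 3 higher under TPM and without any 1 well other than MAGI2-CKO replicate 1. The list of integrins and their adaptors gave 2 higher and 5 lower of 24. All 5 lower genes were integrin subunits, led by ITGA8 (-1.20), and the 2 higher ones were adaptors, the kindlin FERMT2 (0.36) and the talin TLN2 (0.55).

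Signals that a supporting cell may send were mostly under the filter. Of 63 cytokines, chemokines and growth factors 29 were tested, with 2 higher and 5 lower (3 lower without C9orf89-CKO replicate 2, 8 under TPM). The blocked fit gave 4 higher and 9 lower, and a mean of at least 1 FPKM left 0 higher. PTN, pleiotrophin, was higher at 3.58, 2.23 and 2.72 FPKM against 0.813, 1.00 and 0.806 FPKM (1.57 ± 0.21; limma adjusted p = 0.00016), whereas its relative midkine was lower. PDGFA (-1.91) and THPO, thrombopoietin (2.59; means of 1.43 and 0.172 FPKM), moved in opposite directions and are named after their values were seen. TGF-beta and BMP signalling gave 9 higher and 8 lower of 47, with CHRD (1.28), ID2 (0.80) and BMP4 (0.65) higher and INHBB lower (-1.57). The lower genes numbered 5 without MAGI2-CKO replicate 2 and without C9orf89-CKO replicate 2 or 3. Notch signalling gave 4 higher and 6 lower of 30, and its target genes HES4 (0.97) and HES1 (0.64) rose while the ligands DLK2 (-1.49) and DLL1 (-0.55) fell. The lower Notch genes numbered 3 without any 1 well of MAGI2-CKO or without C9orf89-CKO replicate 2. The higher ones numbered 7 in the blocked fit and without replicate 1 of every group.

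Partners of the disrupted proteins were counted next. Among 20 tested genes of the MAGI2 family and its binding partners 3 were higher and 3 lower, or 15% each, beside 9.76% and 12.7% over all genes. The higher genes numbered 1 under TPM, with only the 6 libraries, and outside the chromosome stretches described below. The brain angiogenesis inhibitor receptor ADGRB1, which binds MAGI scaffolds, was at 2.24, 2.99 and 2.98 FPKM against 1.34, 1.12 and 1.24 FPKM (1.08 ± 0.17; limma adjusted p = 0.00058). Of 28 genes of PI3K and AKT signalling, 2 were higher, led by PIK3R3 (0.68), and 2 lower, and each count was 1 when single wells such as MAGI2-CKO replicate 2 or 3 were left out. Of 16 genes of CARD and BCL10 signalling CARD19 was higher and 2 were lower, led by the apoptosome protein APAF1 (-0.48). The lower count was 1 without any well other than C9orf89-CKO replicate 1. NF-kB genes gave 2 higher and 2 lower of 23, and the higher count was 0 to 1 without any well other than MAGI2-CKO replicate 1. The shares of both lists were near those over all genes.

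Stress, interferon and growth lists were mixed. The integrated stress and unfolded protein responses gave 8 higher and 9 lower of 47, with 4 higher under TPM and 14 without replicate 1 of every group or in the blocked fit, and 6 higher and 5 lower of 39 outside the chromosome stretches. CHAC1, a glutathione-degrading target of ATF4 on chromosome 15, was at 14.2, 16.4 and 19.2 FPKM against 5.53, 6.64 and 5.80 FPKM (1.45 ± 0.13; limma adjusted p = 7.3e-06), and DDIT4 rose by 1.08, whereas the chaperone HYOU1 (-0.74), whose gene lies in the chromosome 11 stretch, and the factor XBP1 (-0.48) were lower. Interferon response and MHC class I genes gave 4 and 4 of 31, with 7 higher in the blocked fit. OAS3, a sensor of double-stranded RNA, was at 0.325, 0.419 and 0.484 FPKM against 2.84, 3.09 and 2.79 FPKM (-2.57 ± 0.16), and IFITM1 was higher (1.20). Cell cycle genes gave 4 higher and 11 lower of 60, led by CDK6 (-0.95), which lies in the chromosome 7 stretch, and 2 higher and 9 lower of 56 outside the stretches, but the lower count was 18 under TPM and without replicate 1 of every group, and 6 to 7 without replicate 2 or 3 of either clone. The higher count was 2 under TPM, 1 to 2 without any well other than MAGI2-CKO replicate 1, and 8 in the blocked fit. Respiratory chain subunits gave 3 and 5 of 72, led by ATP5F1A, the alpha subunit of ATP synthase (21.6, 22.5 and 22.9 FPKM against 41.2, 54.0 and 52.5 FPKM; -1.13 ± 0.09), with 1 and 9 under TPM and 15 and 12 without replicate 1 of every group. Imprinted genes gave 2 higher and 8 lower of 21, led by PHLDA2 (-2.07). Nucleoside metabolism and cytarabine genes gave 3 higher and 4 lower of 23, among them DUT, which breaks down dUTP (0.77), and the nucleotidase NT5C3A (-0.79). DUT lies in the chromosome 15 stretch and NT5C3A in that of chromosome 7, which left 2 higher and 3 lower of 21 outside. The lower count was 2 without C9orf89-CKO replicate 3, and the higher count was 5 without replicate 1 of every group or centred on the library median and 7 in the blocked fit.

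Markers of HEK293T cells were checked against the label. Of 16 markers 12 were tested, their summed level was 145, 162 and 163 FPKM in MAGI2-CKO and 164, 169 and 167 FPKM in C9orf89-CKO, and VIM was the most abundant. Of these 12, 3 were higher, among them KRT8 (0.49) and SALL1 (0.29), and 3 were lower, NEFM, WT1 (-0.36) and EPCAM (-0.87). The call of SALL1 was lost under TPM and without C9orf89-CKO replicate 3. That of EPCAM was lost without replicate 1 of every group (limma adjusted p = 0.0538). WT1 did not pass with only the 6 libraries (limma adjusted p = 0.0501). TUBB3 and PAX8 were at or near 0 in both clones. Markers of mesenchymal stromal cells summed to 12.7, 14.6 and 15.6 FPKM and to 15.7, 16.4 and 15.9 FPKM, with 7 of 18 tested. S100A4 (2.17) and COL3A1 (0.98) were higher and MCAM, the most abundant of them in most libraries, was lower (-0.78) and lies in the chromosome 11 stretch. Both higher genes were at low levels. S100A4 was counted by 10, 6 and 0 fragments in C9orf89-CKO. COL3A1 was at 0.333, 0.356 and 0.369 FPKM in MAGI2-CKO and 0.116, 0.114 and 0.159 FPKM in C9orf89-CKO. It met the filter only through Non-target, whose mean of 1.29 FPKM was above both clones. The higher count was 1 without MAGI2-CKO replicate 2 or 3 or C9orf89-CKO replicate 2, and CD44, COL1A2 and FAP were listed at 0 in all 6 libraries.

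The differences were not spread evenly over the genome. Medians over the genes of a chromosome arm lay between -0.12 and 0.12 except on 7p (-0.57), 7q (-0.25), 14 (0.29) and 15 (0.39). Stretches were then drawn after these values were seen. On chromosome 7, from 0 to 110 Mb, 332 of 567 genes were lower and 3 higher, with a median of -0.53, whereas the rest of the chromosome had 20 higher and 22 lower of 236 and a median of 0.03. On chromosome 11, from 100 to 140 Mb, 121 of 178 were lower and 1 higher, with a median of -0.62. On chromosome 14, from 40 to 110 Mb, 171 of 395 were higher and 13 lower (0.34), and on chromosome 15 it was 239 of 536 against 10 (0.39). A shorter run was left out of these stretches, chromosome 6 from 150 to 160 Mb, where 25 of 42 genes were lower and 0 higher (-0.38), and its genes count as outside.

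Against the same C9orf89-CKO levels, the chromosome 7 stretch had medians of -0.52, -0.53 and -0.56 in the 3 MAGI2-CKO libraries and of 0.04, -0.01 and 0.05 in Non-target, MLPH-CKO and RHBDD2-CKO. The MAGI2-CKO wells were the low ones. Chromosome 15 was alike in MLPH-CKO (0.41) but not in Non-target (-0.03) or RHBDD2-CKO (0.05), and the chromosome 11 stretch was also low in MLPH-CKO (-0.27). Within 10 Mb on either side of MAGI2, which lies in the chromosome 7 stretch, 48 of 84 genes were lower and 1 higher (median -0.55), and around CARD19 14 of 111 were lower and 8 higher (-0.07). RHBDD2, which is on chromosome 7 and was the target in another clone, was at 11.7, 13.8 and 16.02 FPKM in MAGI2-CKO against 23.2, 28.2 and 26.9 FPKM (-0.92 ± 0.14; limma adjusted p = 0.00039). The DNA of the clones was not measured in these libraries.

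These 4 stretches held 10.4% of the genes tested and 24.4% of those past the threshold. Outside them 2751 of 14499 genes passed (18.97%), 1165 higher and 1586 lower. All HOXA genes tested lie in the chromosome 7 stretch, and outside all stretches the HOX clusters had 7 lower genes of 23. The WNT list kept its 15 lower genes outside them, of 41. Of the integrin list, the adaptors FERMT2 and TLN2 lie in the stretches of chromosomes 14 and 15, which left 0 higher and 5 lower of 22, and imprinted genes 0 higher and 5 lower of 15. Of other genes named above, HSPB1 and PDGFA lie in the chromosome 7 stretch, BARX2 in that of chromosome 11, and FOS and BMP4 in that of chromosome 14.

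**Figure D5:**
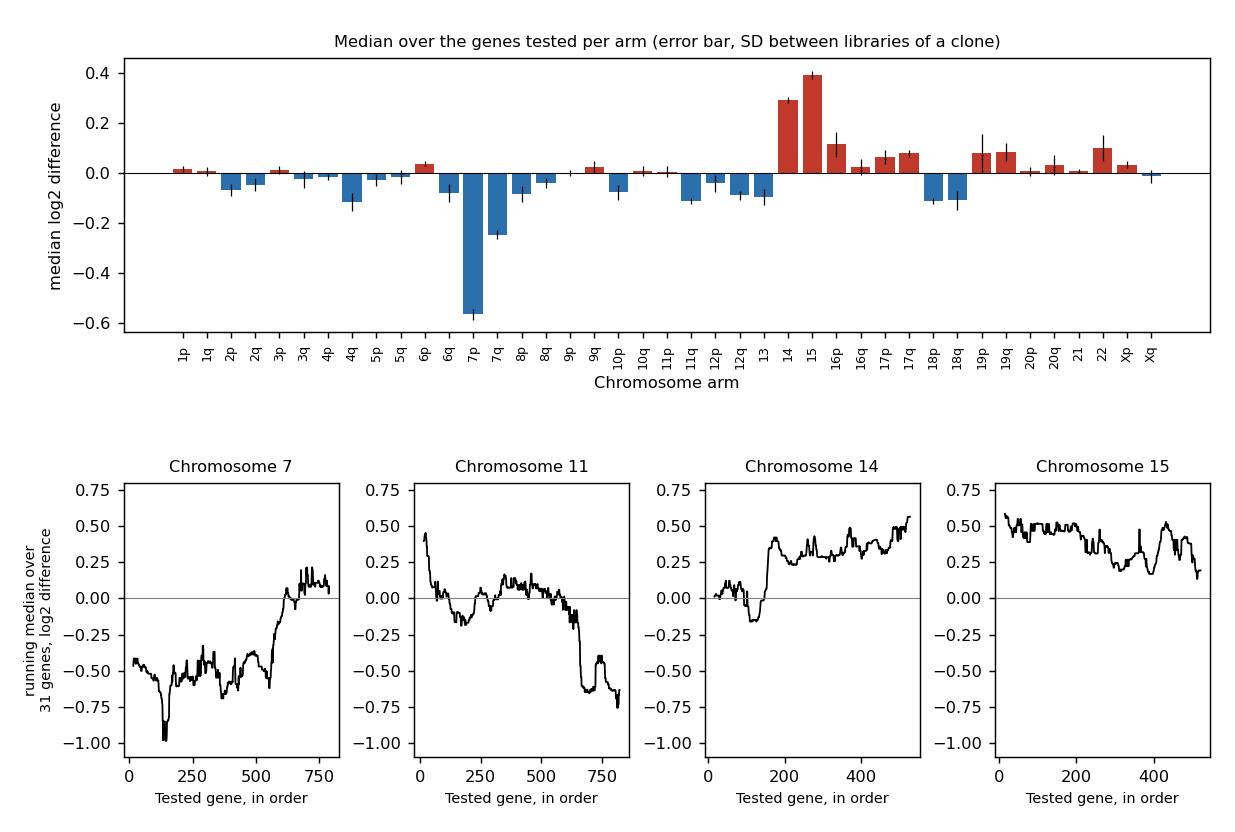
Top, median log2 difference between MAGI2-CKO and C9orf89-CKO per chromosome arm (y axis; error bars, SD between libraries of a clone); bottom, running median over 31 neighbouring genes along chromosomes 7, 11, 14 and 15 (x axis, tested genes in order). The curves leave 0 on most of chromosome 7, the end of 11, most of 14 and all of 15.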

How the data were processed

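RNA of 15 HEK293T libraries was analysed, with 3 wells for each of 5 clones. The authors deposited 1 table per library without naming the unit. They were read as FPKM, because a deposited value times its gene's merged exon length (GENCODE v29, GRCh38) came out as whole fragments. In every library this held for 100% of the values checked, within a tolerance of 0.01. Values of 0 and those of the highest fragment counts were not part of the check. The 262601551 fragments recovered in this way gave the depths. They cover counting error only. The submitters' processing notes name HISAT2 2.0.5, featureCounts 1.5.0-p3 and DESeq2, and the genome build is not given in the sources used here.

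All 15 libraries entered 1 linear model of log2(FPKM + 0.1) with 5 groups, in limma 3.58.1 (R 4.3.3) with eBayes and a trend (prior degrees of freedom 2.62, residual 10), over 16175 genes. On simulated data with 15526 genes it found 98 of 100 genes changed by 1 and 99 of 100 changed by 2 on the log2 scale, with 12 unchanged genes called. The simulated libraries were drawn independently with 1 fixed spread and without the shift of replicate 1. The changed genes had a mean of at least 1 FPKM over the 15 libraries. These counts therefore do not give the error rate on the wells measured here. The members, lists and stretches were chosen with earlier results of these data known. Genes named were the targets, the 12 largest rises and 12 largest falls of protein-coding genes (passed, no overlap, mean of at least 1 FPKM over the 6 libraries), the 2 of other gene types each way, the 4 each way at 50 FPKM or more, and up to 3 each way per list by the same criteria, with up to 2 that did not pass. Some genes, and 1 list, are not reported here. Other names are said to be chosen after their values were seen. Guide sites were found in GENCODE transcripts, and the upstream window is from RefSeq. Figures were drawn with Python 3.11.15.

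Alternatives were the replicate number as a block, only the 6 libraries, pseudocounts of 1 and 0.01, no filter, a mean of at least 1 FPKM, quantile normalization, TPM, median centring, no trend, voom on the fragments, each library of the 2 clones left out, and replicate 1 left out in all groups. Leaving out the genes of the 4 stretches was chosen after seeing the data.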

Additional observations from a re-analysis of the deposited data

How the results depend on the processing

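Over 19 alternatives the genes past the threshold numbered 2594 to 5100, the higher genes 1058 to 2371 and the lower genes 1487 to 2729. With the replicate number as a block, 5100 genes passed, 2371 higher and 2729 lower. Same-numbered wells correlated at 0.22, 0.00 and 0.08 in their deviations, and MAGI2-CKO replicate 2 and replicate 3 each correlated best with another number (0.07 and 0.13), so the check does not show the numbers to pair the wells one by one, although replicate 1 correlated best with replicate 1. Without replicate 1 of every group 5053 genes passed. Of the genes past the threshold, the number with at least 2-fold differences fell from 678 to 221 with a pseudocount of 1, which shrinks low values, and to 384 with a mean of at least 1 FPKM, which tests fewer genes. CARD19 no longer passed under TPM (0.35; limma adjusted p = 0.056). The cause was not tested. Leaving out single wells gave 2594 to 3633 genes, 1058 to 1538 higher and 1487 to 2095 lower, 589 to 784 at 2-fold, and 0.37 to 0.47 for CARD19. The median of 7p ranged from -0.65 to -0.32, of 7q from -0.33 to -0.07, of 14 from 0.18 to 0.32 and of 15 from 0.23 to 0.42 over 17 alternatives. For 195 named genes none of 3499 alternative values reversed and 218 no longer passed, and 148 genes passed throughout. Apart from the targets, these genes were picked because they passed without overlap or after their values were seen. The lack of reversals was largely fixed by that choice and is no measure of stability over all genes. At 3 fragments, the floor of a library, a 1 kb gene stands at 0.154 to 0.182 FPKM in these 6 libraries, which limits genes such as NEFM in MAGI2-CKO.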

Other observations

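Some changes belonged to none of the groups above. SLC2A3, a neuronal glucose transporter, rose by 1.27 while EPAS1, the hypoxia-inducible factor 2-alpha, fell by 1.20, and the list of hypoxia and glycolysis genes had 4 higher and 6 lower of 44, with 2 higher under TPM, 7 higher without replicate 1 of every group, and 8 higher and 10 lower in the blocked fit. Transcription factors of kidney development were 6 higher and 5 lower of 30, with SOX4 (0.63) higher and the coactivator EYA2 (-1.35) lower, and 3 higher under TPM. Of 16 cancer-testis antigen genes tested, 4 were higher, led by MAGEB2, and 1 was lower, TEX14 (-0.88), which is named after its values were seen. The lower count was 0 without any 1 well other than C9orf89-CKO replicate 1 and without replicate 1 of every group. MKRN3, an imprinted gene on chromosome 15 that was also singled out after its values were seen, had a mean of 0.942 FPKM in MAGI2-CKO and was listed at 0 in C9orf89-CKO.

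Ribosomal protein genes gave 8 higher and 1 lower of 85 (3 higher of 79 outside the 4 chromosome stretches), with RPLP1 (0.53), named after its values were seen, among the higher, and RPL22L1 fell by 0.77. The higher ribosomal genes numbered 4 to 5 without MAGI2-CKO replicate 1 or 3 or C9orf89-CKO replicate 2, and 22 without replicate 1 of every group. The lower ones numbered 8 without replicate 1 of every group, 5 in the blocked fit and 4 under TPM. Regulators of DNA methylation and chromatin gave 2 and 2 of 26, clustered protocadherins 1 higher of 5 tested, and the BEX and TCEAL genes 0 of 10 by limma, but 4 higher and 1 lower both in the fit blocked on replicate number and without replicate 1 of every group. For the DNA methylation list both counts were 1 without replicate 2 or 3 of MAGI2-CKO and 4 in the blocked fit. Its lower count was also 4 under TPM and without replicate 1 of every group.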
